A study of Mus musculus with 12 samples.

Results

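The genes described here are the 10 genes of MHC class II (MHCII) antigen presentation named H2-Aa, H2-Ab1, H2-Eb1, H2-DMa, H2-DMb1, H2-DMb2, H2-Oa, H2-Ob, Cd74 and Ciita. They were chosen by symbol, and all 10 were found among the 34677 genes of the deposited expression table. RNA-seq was performed on sorted thymic epithelial cells (TEC) of mice aged 4 to 6 weeks, with 5 to 10 animals pooled for each sort. Cortical TEC (cTEC) were gated as EpCAM+CD45-Ly51+UEA1- and medullary TEC (mTEC) as EpCAM+CD45-Ly51-UEA1+, and the study asked what the absence of MHCII changes in each subset. There were 4 groups of 3 libraries, 12 libraries in all: cTEC of WT mice, cTEC of Aβ0/0 mice, mTEC of WT mice and mTEC of Aβ0/0 mice. Aβ0/0 mice carry a germline disruption of H2-Ab1, the gene of the Aβ chain, so the lack of Aβ is not restricted to TEC in them. WT mice were purchased C57BL/6 animals and Aβ0/0 mice came from another source, so that genotype and source cannot be told apart. The cTEC and mTEC libraries of 1 genotype that share a number came from the same pool of mice. No label says that a pool was split further, so the p-values measure the spread between 3 pools in each group. Unless a pool is named as the unit or block, tests that join both subsets treat the cTEC and mTEC libraries of 1 pool as independent.

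MHCII molecules are pairs of an α and a β chain that present peptides to CD4+ T cells. H2-Aa and H2-Ab1 encode the chains of I-A, the only MHCII molecule that C57BL/6 mice place on the cell surface, because the α chain gene of I-E is defective in this strain and H2-Eb1 therefore encodes a β chain without its partner. Cd74 encodes the invariant chain, which holds the new pair in the endoplasmic reticulum and takes it to endosomes. H2-DMa, H2-DMb1 and H2-DMb2 encode DM, which exchanges the last invariant chain fragment for peptide, and H2-Oa and H2-Ob encode DO, which restrains DM. Ciita encodes the coactivator that MHCII promoters need. TEC are unusual among epithelial cells in expressing MHCII without inflammation. In the cortex it serves positive selection of CD4+ thymocytes, and in the medulla it serves the presentation of self antigens.

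Promoters of MHCII genes share a conserved upstream module in which an X1 box, an X2 box and a Y box recruit RFX, CREB and NF-Y, and Ciita docks on the assembled factors. A pair of letter patterns of that module was searched in RefSeq promoters of build GRCm38.p6: GATTGG, the core of the Y box, and TGANG, a short pattern of X2 boxes that lies 20 to 28 bases before GATTGG. The patterns were searched in 250 bases before the start. A window was found for 7 of the 10 genes, and there was none for H2-Ab1, Cd74 and Ciita. The windows of 4 genes are shown because they hold both patterns of the module, outside annotated exons, in genes of different roles (α chain, β chain, DM and DO). Each is printed in the direction of the gene, with TGANG and GATTGG in capitals.
H2-Aa: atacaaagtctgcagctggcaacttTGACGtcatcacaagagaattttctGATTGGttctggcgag
H2-Eb1: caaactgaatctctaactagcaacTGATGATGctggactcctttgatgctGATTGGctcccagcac
H2-DMb2: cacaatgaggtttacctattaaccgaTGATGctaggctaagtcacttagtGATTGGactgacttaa
H2-Ob: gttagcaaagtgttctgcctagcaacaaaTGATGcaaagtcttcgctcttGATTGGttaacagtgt

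The H2-Aa sequence lies at chr17:34287857-34287922 on the minus strand, that of H2-Eb1 at chr17:34305757-34305822, that of H2-DMb2 at chr17:34145108-34145173 and that of H2-Ob at chr17:34238797-34238862, the last 3 on the plus strand. No annotated exon overlaps these 4 windows. GATTGG began 49 bases before the start in H2-Aa, 60 bases before it in H2-Eb1, 91 in H2-DMb2 and 58 in H2-Ob. GATTGG was present in a window of all 7 genes, and 14.6% of 32851 promoter windows of the same length hold it on either strand. The former is a count of genes, and H2-DMa also had a window without GATTGG, while the latter is a share of windows. The pair of patterns was present in 5 of the 7 genes on the strand of the gene, namely H2-Aa, H2-Eb1, H2-DMb1, H2-DMb2 and H2-Ob, against 0.387% of all windows. The patterns can overlap one another, as TGATGATG in H2-Eb1 holds TGANG at a distance of 26 and of 23 bases, and the range of distances was chosen after these windows had been seen. H2-Oa had GATTGG 44 bases before its start without the pair, and H2-DMa had GATTGG only in the window of its second start, 199 bases before it. A match is a description of letters and not a site of binding.

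Libraries held 21710319 to 36139815 estimated counts. Replicate libraries correlated with their own group at a mean r of 0.954 to 0.966 in WT mTEC and of 0.793 to 0.806 in Aβ0/0 mTEC, and at 0.842 to 0.896 in both cTEC groups. The study's sort records list fewer sorted cells for Aβ0/0 than for WT in every replicate of both subsets. The number of sorted cells and genotype thus cannot be told apart. The sort was checked with 9 cTEC markers, which included Prss16, Ctsl and Ccl25. Levels are given in TPM, which corrects for transcript length and library total. The summed level of the markers was 6359 to 19852 TPM in cTEC and 1395 to 2290 TPM in mTEC. The lowest cTEC sum was that of WT replicate 3. The 7 markers of mature mTEC, which included Aire and Cd86, summed to 29.2 to 76.9 TPM in cTEC and 386 to 1439 TPM in mTEC.

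H2-Ab1, the gene disrupted in Aβ0/0 mice, lies on chromosome 17 at 34257689 to 34269419 on the plus strand (GRCm38). It was lower in every Aβ0/0 library than in every WT library. In cTEC, H2-Ab1 was at 9055, 9640 and 9150 TPM in the WT libraries and at 3153, 3956 and 3491 TPM in the Aβ0/0 libraries. In mTEC it was at 11506, 11966 and 11674 TPM in WT and at 2469, 3541 and 3177 TPM in Aβ0/0. Neither subset had overlapping genotypes, and the mean in Aβ0/0 was 38.1% of the WT mean in cTEC and 26.1% in mTEC. In mTEC the gene was 1.81 ± 0.27 (SE) log2 units higher in WT (n = 3 against 3, edgeR quasi-likelihood test, adjusted p = 0.0352). In cTEC the difference was 1.47 ± 0.34 (edgeR, unadjusted p = 0.00161, adjusted p = 0.695), which did not pass the threshold of 0.05. The cTEC difference passed with DESeq2 (adjusted p = 0.00169). The mTEC difference had an adjusted p of 0.0554 in edgeR without a filter on low counts, of 0.129 to 0.138 without WT replicate 1, 2 or 3 and of 0.0799 without Aβ0/0 replicate 3. With the replicate number, by which the study's sort records list both genotypes, as a block, its adjusted p was 0.102 in edgeR, and 0% of all genes passed in that fit. Which part of the disrupted gene gave the remaining reads cannot be told from values per transcript.

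**Figure D1:**
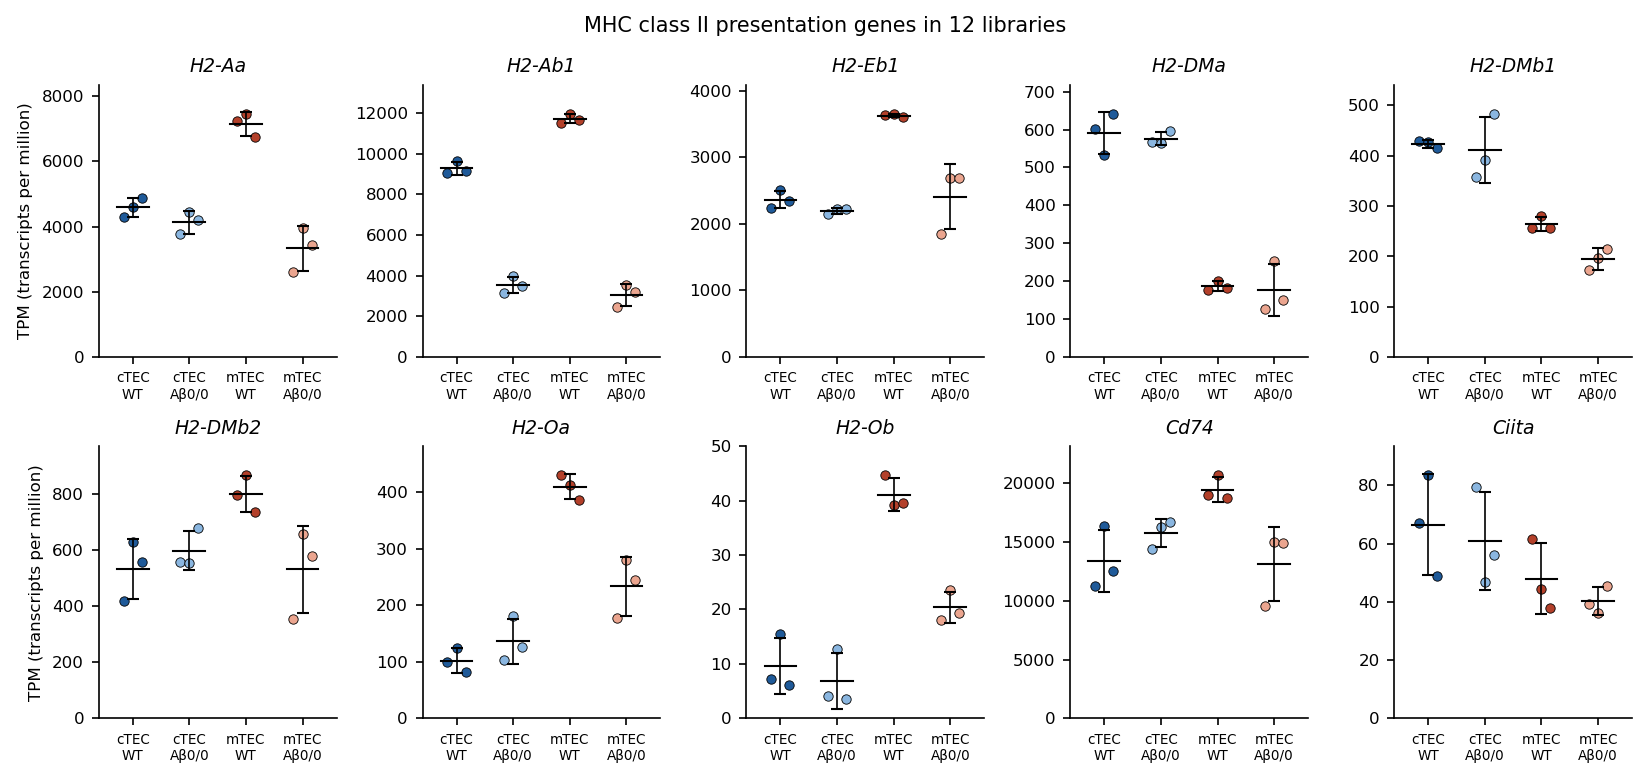
Levels of the 10 MHCII genes in TPM on a linear axis, with 1 point per library and, for each group of 3, a line at the mean and whiskers of 1 SD. H2-Ab1 had the widest gap between genotypes, with no Aβ0/0 library above 3956 TPM and no WT library below 9055 TPM.

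H2-Aa encodes the α chain, the partner of Aβ, and its gene was not disrupted. In cTEC, H2-Aa was at 4281, 4614 and 4873 TPM in WT and at 3758, 4439 and 4187 TPM in Aβ0/0, and the libraries overlapped. In mTEC, H2-Aa was at 7229, 7465 and 6748 TPM in WT and at 2606, 3965 and 3426 TPM in Aβ0/0, without overlap. The mean in Aβ0/0 mTEC was 46.6% of that in WT mTEC, and in cTEC it was 90.0%. The difference of 0.95 ± 0.28 log2 units in mTEC did not pass (edgeR, unadjusted p = 0.0111, adjusted p = 0.133), whereas it passed with DESeq2 (0.96, adjusted p = 0.0297).

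Since both chains of I-A are read in 1 library, the ratio of H2-Ab1 to H2-Aa does not depend on the scaling of the library. In cTEC the ratio was 2.12, 2.09 and 1.88 in WT and 0.839, 0.891 and 0.834 in Aβ0/0. In mTEC the ratio was 1.59, 1.60 and 1.73 in WT and 0.947, 0.893 and 0.927 in Aβ0/0. H2-Ab1 thus exceeded its partner in the 6 WT libraries and was below it in the 6 Aβ0/0 libraries. On the log2 scale the WT ratio was higher by 1.24 in cTEC and by 0.83 in mTEC, each with the smallest p that 3 against 3 allows (exact permutation test, two-sided, p = 0.1). Over both subsets, with labels permuted within each, the difference was 1.04 (exact permutation test, two-sided, p = 0.005, the smallest that 400 labelings can give). This test took the cTEC and mTEC libraries of 1 pool as independent, although they share mice. By pool, 3 against 3 allows no exact permutation p under 0.1. The difference over both subsets was 0.93 to 1.504 from estimated counts, from the deposited rlog values or with Cd74 in the place of H2-Aa.

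**Figure D2:**
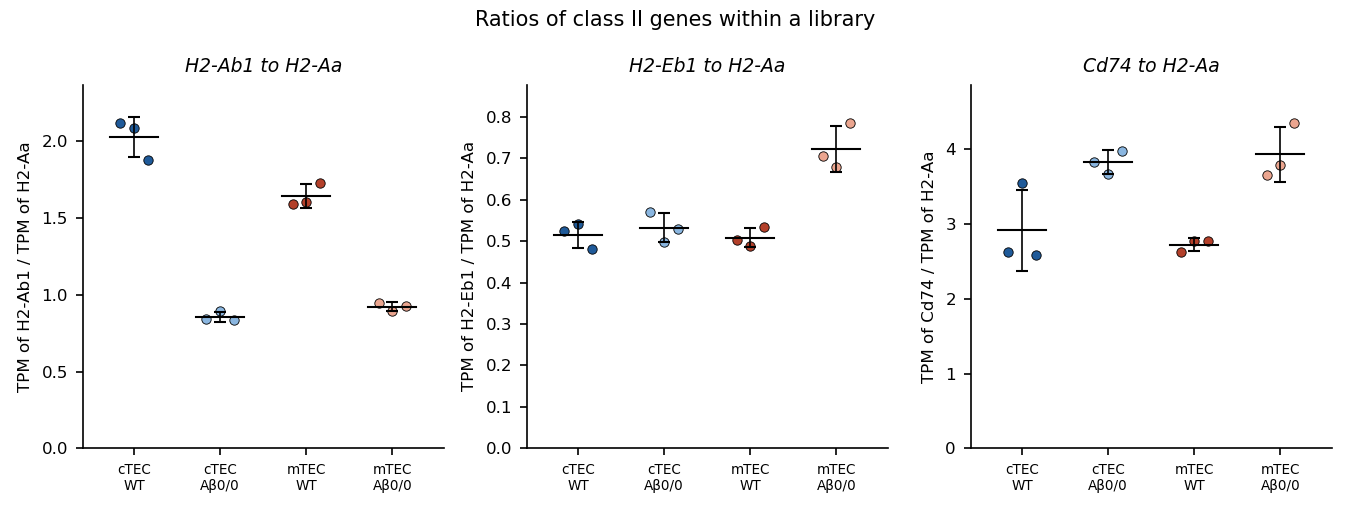
Ratios between MHCII genes within each library, with 1 point per library, a line at the mean and whiskers of 1 SD. The H2-Ab1 to H2-Aa ratio was between 1.59 and 2.12 in WT libraries and between 0.834 and 0.947 in Aβ0/0 libraries.

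A pair of other ratios was examined after the values had been seen. The ratio of H2-Eb1 to H2-Aa in mTEC was 0.502, 0.489 and 0.533 in WT and 0.706, 0.678 and 0.784 in Aβ0/0, so that the β chain gene of I-E was closer to H2-Aa in every Aβ0/0 library (log2 difference -0.51, exact permutation test, two-sided, p = 0.1, the smallest possible). In cTEC the same ratio overlapped between genotypes, with 0.482 to 0.543 in WT and 0.499 to 0.570 in Aβ0/0. Cd74 over H2-Aa was 2.58 to 3.54 in WT cTEC and 3.67 to 3.98 in Aβ0/0 cTEC. In mTEC it was 2.63 to 2.77 in WT and 3.66 to 4.35 in Aβ0/0. Relative to H2-Aa, the invariant chain was therefore higher in all Aβ0/0 libraries of both subsets (log2 difference of WT minus Aβ0/0 -0.47, exact permutation test, two-sided, p = 0.005, the smallest of 400 labelings). This test also took the cTEC and mTEC libraries of 1 pool as independent. By pool, 3 against 3 allows no exact permutation p under 0.1.

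H2-Ab1 has 8 annotated transcripts, of which 3 were quantified. H2-Ab1-201 is the protein-coding transcript of 1211 bases and 6 exons. H2-Ab1-202 (628 bases) and H2-Ab1-203 (515 bases) are annotated as retained introns. The coding transcript held 99.8% ± 0.09 (SD, n = 3) of the estimated counts of the gene in WT cTEC, 99.5% ± 0.26 in Aβ0/0 cTEC, 99.9% ± 0.02 in WT mTEC and 98.97% ± 0.37 in Aβ0/0 mTEC. The remaining share was 0.0871% to 0.125% in WT mTEC and 0.691% to 1.43% in Aβ0/0 mTEC, without overlap. In cTEC it was 0.0788% to 0.249% in WT and 0.164% to 0.638% in Aβ0/0, with overlap. The share of the coding transcript was higher in WT by 0.935 percentage points in mTEC (exact permutation test, two-sided, p = 0.1, the smallest possible) and by 0.273 points in cTEC (exact permutation test, p = 0.3). Since H2-Ab1-201 held nearly all counts of the gene, this share also falls when H2-Ab1-201 alone is lower.

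Estimated counts of H2-Ab1-203 in mTEC were 155, 151 and 123 in WT and 284, 885 and 410 in Aβ0/0. Those of H2-Ab1-202 were 110, 177 and 168 in WT and 201, 663 and 126 in Aβ0/0. H2-Ab1-203 was higher in each Aβ0/0 mTEC library, and H2-Ab1-202 overlapped. Tested over all 47399 transcripts in mTEC, H2-Ab1-201 was 1.99 ± 0.24 log2 units higher in WT (edgeR, unadjusted p = 1.29e-04, adjusted p = 0.166) and H2-Ab1-203 was at -1.78 ± 0.56 (edgeR, unadjusted p = 0.0177, adjusted p = 0.338). Neither passed, nor did any transcript (0% of the transcripts tested in mTEC or in cTEC), while both had an unadjusted p under 0.05. In cTEC, H2-Ab1-201 was at 1.45 ± 0.25 (edgeR, unadjusted p = 7.5e-04, adjusted p = 1) and the retained introns were at 0.14 and 0.11. A read from a disrupted transcript that is compatible with H2-Ab1-201 is assigned to it, so the values do not say that an intact mRNA was present.

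In mTEC, levels of 8 of the 10 genes were higher in every WT library than in every Aβ0/0 library, against 19.4% of all genes tested, and H2-DMa and Ciita overlapped. The edgeR test passed for 1 of the 10, H2-Ab1, against 5.66% of all genes, and 3 had an unadjusted p under 0.05, against 15.3%. DESeq2 called 3, H2-Ab1, H2-Aa and H2-Ob, against 8.94% of all genes. The median difference of the 10 genes was 0.44 log2 units, against 0.00 over all genes, and 9 of the 10 had a positive sign. The lowest library of all 12 was Aβ0/0 mTEC replicate 1 for 7 of the 10 genes. In these sorted pools, fewer MHCII-rich cells and less RNA per cell cannot be told apart.

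The estimates for H2-Eb1 and Cd74 in mTEC were below that for H2-Aa. H2-Eb1 was at 3627, 3653 and 3597 TPM in WT mTEC and at 1841, 2688 and 2686 TPM in Aβ0/0 mTEC (0.44 ± 0.27 log2 units, edgeR, adjusted p = 0.530). Cd74, the most abundant of the 10 genes in every group, was at 18984, 20693 and 18715 TPM in WT and at 9539, 15035 and 14888 TPM in Aβ0/0 (0.43 ± 0.29, edgeR, adjusted p = 0.60). For both genes the genotypes did not overlap, and the mean in Aβ0/0 was 66.3% and 67.6% of WT, respectively. Without Aβ0/0 mTEC replicate 1, the estimates were 0.20 for H2-Eb1 and 0.17 for Cd74, and without Aβ0/0 mTEC replicate 2 they were 0.66 for both.

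The DO genes showed the same order of the genotypes in mTEC. H2-Ob, the DO β chain and the least abundant of the 10 genes, was at 44.7, 39.1 and 39.5 TPM in WT and at 18.1, 23.6 and 19.4 TPM in Aβ0/0 (0.96 ± 0.25, edgeR, unadjusted p = 0.00596, adjusted p = 0.0851). H2-Oa, the DO α chain, was at 431, 413 and 386 TPM in WT and at 177, 280 and 245 TPM in Aβ0/0 (0.65 ± 0.28, edgeR, adjusted p = 0.341). Neither gene overlapped between genotypes and neither passed, although H2-Ob passed with DESeq2 (adjusted p = 5.59e-04). The H2-Oa estimate was 0.40 without Aβ0/0 mTEC replicate 1, and at most 0.93 with another library left out.

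None of the DM genes passed in mTEC. H2-DMa, the DM α chain, was at 176, 201 and 181 TPM in WT and at 125, 253 and 151 TPM in Aβ0/0, with Aβ0/0 replicate 2 above all WT libraries and the others below them (-0.12 ± 0.37, edgeR, adjusted p = 0.935). H2-DMb1 was at 257, 280 and 256 TPM in WT and at 172, 197 and 214 TPM in Aβ0/0. H2-DMb2 was at 796, 868 and 738 TPM in WT and at 356, 658 and 581 TPM in Aβ0/0. The genotypes did not overlap for either β chain gene, and the differences were 0.27 ± 0.23 and 0.43 ± 0.33 log2 units (edgeR, adjusted p = 0.701 and 0.650). Without Aβ0/0 mTEC replicate 1 they were 0.089 and 0.14, and with another library left out they were at most 0.42 and 0.75. H2-DMb1-201 and H2-DMb2-201 were 95.7% identical over 1081 aligned bases and shared 37.6% of the 31-base words of the shorter, so that reads may have been split between them and their separate levels are uncertain.

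Ciita differed little between genotypes. In mTEC it was at 61.6, 44.5 and 37.8 TPM in WT and at 39.4, 36.0 and 45.5 TPM in Aβ0/0, and in cTEC it was at 67.1, 83.5 and 48.8 TPM in WT and at 79.6, 46.9 and 55.9 TPM in Aβ0/0. The libraries overlapped in both subsets, and the differences were 0.12 ± 0.20 and 0.20 ± 0.25 log2 units (edgeR, adjusted p = 0.869 and 1).

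In cTEC, 2 of the 10 genes, H2-Ab1 and H2-Eb1, were higher in every WT library, against 3.46% of all genes tested. H2-Eb1 was at 2240, 2503 and 2346 TPM in WT and at 2143, 2216 and 2215 TPM in Aβ0/0, with the lowest WT and the highest Aβ0/0 library close together (0.20 ± 0.30, edgeR, adjusted p = 1). None of the 10 genes passed in edgeR, against 0.0194% of all genes, 1 had an unadjusted p under 0.05, against 2.16%, and 1 passed with DESeq2, against 0.51%, in both cases H2-Ab1. The median difference of the 10 was 0.19 log2 units and that of all genes was 0.06.

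The cTEC levels of the remaining genes overlapped between genotypes. Cd74 was at 11260, 16349 and 12576 TPM in WT and at 14406, 16270 and 16678 TPM in Aβ0/0. H2-DMa was at 601, 533 and 642 TPM in WT and at 568, 563 and 596 TPM in Aβ0/0. H2-Oa was at 100, 125 and 82.0 TPM in WT and at 103, 180 and 126 TPM in Aβ0/0. Differences of these 3 genes were -0.16 ± 0.33, 0.18 ± 0.34 and -0.42 ± 0.34 log2 units, less than 1 SE from 0 for Cd74 and H2-DMa. Without Aβ0/0 cTEC replicate 2 the H2-Oa estimate was -0.012, and without Aβ0/0 cTEC replicate 1 it was -0.66. H2-DMb1 ranged from 415 to 429 TPM in WT and from 357 to 484 TPM in Aβ0/0, and H2-DMb2 from 417 to 628 TPM and from 555 to 678 TPM. H2-Ob was low in all 6 cTEC libraries, between 3.51 and 15.5 TPM, and its difference of 1.06 ± 0.70 log2 units did not pass (edgeR, adjusted p = 1). That estimate was 0.43 with counts scaled from TPM, 0.45 from the rlog values and 0.74 to 1.78 with a library left out.

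**Figure D3:**
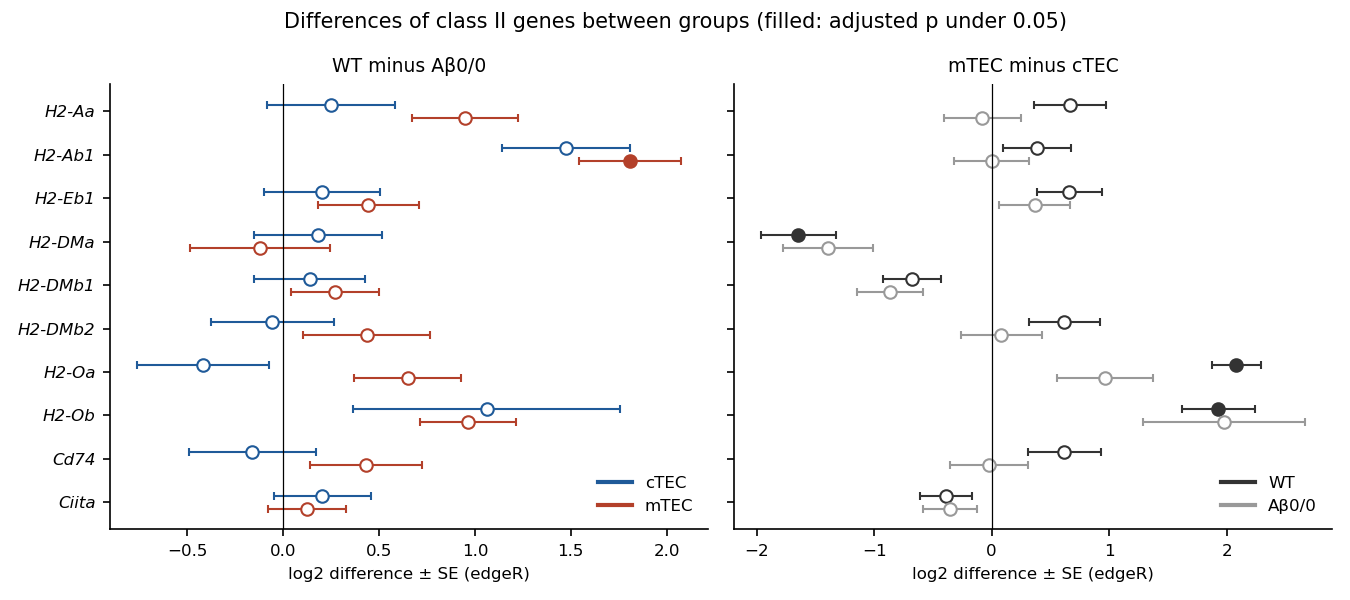
Log2 differences of the 10 genes with their SE from edgeR, WT minus Aβ0/0 in cTEC and mTEC on the left and mTEC minus cTEC in WT and Aβ0/0 on the right. Filled points had an adjusted p under 0.05, which were H2-Ab1 for genotype in mTEC and H2-DMa, H2-Oa and H2-Ob for subset in WT.

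Whether the genotype difference itself differed between mTEC and cTEC was tested as an interaction over all 12 libraries. None of the 10 genes passed in edgeR, against 0.0103% of all genes, and DESeq2 and limma on the rlog values also gave 0, against 1.45% and 2.73%. H2-Oa alone had an unadjusted p under 0.05, against 6.9% of all genes, with a WT excess that was 1.10 ± 0.48 log2 units larger in mTEC (unadjusted p = 0.0396, adjusted p = 0.682). For H2-Aa the estimate was 0.74 ± 0.45, for Cd74 0.63 ± 0.45 and for H2-Ab1 0.37 ± 0.43 (edgeR, adjusted p = 0.850, 0.898 and 0.982). With a library left out the estimate ranged from 0.69 to 1.41 for H2-Oa and from 0.55 to 1.03 for H2-Aa. For Cd74 the range was 0.42 to 0.88, and for H2-Ab1 it was 0.15 to 0.64. The larger H2-Aa difference in mTEC than in cTEC was thus not shown to be a difference between the subsets.

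Between the subsets of WT mice, 7 of the 10 genes were higher in every mTEC library, against 28.4% of all genes, and H2-DMa and H2-DMb1 were lower in every mTEC library, against 15.9%. Only Ciita overlapped. The chains of I-A, H2-Eb1, Cd74, H2-DMb2 and the DO genes were thus on the mTEC side, and the DM α chain and H2-DMb1 were on the cTEC side. In edgeR 3 of the 10 genes passed, against 26.8% of all genes, so that the share of genes called was close to that of the whole table. H2-Oa was higher in mTEC by 2.08 ± 0.21 log2 units (edgeR, adjusted p = 6.7e-04) and H2-Ob by 1.93 ± 0.31 (adjusted p = 0.00409), while H2-DMa was lower, at -1.64 ± 0.32 (adjusted p = 0.00768).

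H2-DMa and the DO genes therefore had opposite orders in WT TEC. H2-DMa was at 533 to 642 TPM in cTEC and 176 to 201 TPM in mTEC, and H2-Oa at 82.0 to 125 TPM in cTEC and 386 to 431 TPM in mTEC. The differences of the other genes did not pass and were 0.39 ± 0.29 for H2-Ab1, 0.67 ± 0.30 for H2-Aa, 0.66 ± 0.28 for H2-Eb1, 0.62 ± 0.31 for Cd74, 0.62 ± 0.30 for H2-DMb2 and -0.68 ± 0.25 for H2-DMb1. Without WT cTEC replicate 3, the library with the lowest cTEC markers, 7 of the 10 genes passed, and the 4 that joined were H2-Aa, H2-Eb1, H2-DMb2 and Cd74, while the share of all genes that passed rose to 38.1%. The part of that library in the comparison was not tested further. With the pool of mice as a block the same 3 genes passed (edgeR, adjusted p = 0.00305 to 0.0183), against 20.5% of all genes.

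Between the subsets of Aβ0/0 mice, H2-Ob was higher in every mTEC library, against 12.7% of all genes, and H2-DMa, H2-DMb1 and Ciita were lower in every mTEC library, against 16.3%. The other 6 genes overlapped. None of the 10 genes passed in edgeR, against 5.6% of all genes, with an unadjusted p under 0.05 for 4 of them, against 17.8%. With the pool as a block, 3 passed, namely H2-DMa at -1.50 (edgeR, adjusted p = 0.0342), H2-DMb1 at -0.87 (adjusted p = 0.0387) and H2-Oa at 0.99 (adjusted p = 0.0488), against 4.02% of all genes in the same fit. DESeq2 without the block called H2-DMa, H2-DMb1 and H2-Ob, against 11.6% of all genes. H2-Aa, H2-Ab1 and Cd74, higher in mTEC in all WT pools, had differences of -0.08 ± 0.32, 0.00 ± 0.32 and -0.02 ± 0.33 log2 units in Aβ0/0 mice. The subset and genotype comparisons use the same libraries and are not independent of each other.

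The order of the genes by level was Cd74, H2-Ab1, H2-Aa and H2-Eb1 in both WT groups, and each of these was apart from the next in every library. In the Aβ0/0 groups H2-Aa had the higher mean and H2-Ab1 followed, and their libraries overlapped. The summed level of the 10 genes was 4.24% to 4.56% of all TPM in WT mTEC, 2.85% to 3.49% in WT cTEC, 2.51% to 2.86% in Aβ0/0 cTEC and 1.73% to 2.67% in Aβ0/0 mTEC. H2-DMa was the fifth gene in WT cTEC and the eighth in WT mTEC, where H2-DMb2, H2-Oa and H2-DMb1 were above it in every library. The ratio of H2-DMb2 to H2-DMb1, subject to the split of reads described above, was 0.974 to 1.47 in WT cTEC and 2.88 to 3.10 in WT mTEC.

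Cd74 was quantified as more than 1 coding transcript, and their proportions differed between groups. Cd74-202 has 1410 bases, with an additional exon of 192 bases, exon 7, that Cd74-201 (1218 bases) lacks. The long form of the invariant chain carries an added domain that binds cathepsin L. This comparison was chosen after the values had been seen. Cd74-202 held 28.1%, 25.7% and 26.0% of the Cd74 counts in WT mTEC and 19.8%, 19.6% and 20.2% in Aβ0/0 mTEC. In cTEC it held 18.9%, 18.5% and 16.6% in WT and 16.9%, 16.5% and 17.9% in Aβ0/0. The share was higher in WT mTEC than in every other library, while the cTEC genotypes overlapped.

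The difference between the genotypes was 6.74 percentage points in mTEC (exact permutation test, two-sided, p = 0.1, the smallest possible) and 0.879 points in cTEC (exact permutation test, p = 0.3). With a library left out it was 5.99 to 7.19 points in mTEC and 0.432 to 1.56 points in cTEC. Between mTEC and cTEC of the same pool the share differed by 8.56 points in WT and by 2.70 points in Aβ0/0, and the difference of 5.86 points between these had the smallest p that 3 pools against 3 allow (exact permutation test, two-sided, p = 0.1). Tested over all transcripts, Cd74-202 was higher in WT mTEC than in WT cTEC by 1.29 ± 0.20 log2 units (edgeR, adjusted p = 0.0298), against 4.03% of transcripts called. Of the other transcripts of the 10 genes, H2-Oa-201 and H2-DMa-201 passed in the same comparison (2.204, adjusted p = 0.0089, and -1.53, adjusted p = 0.0470, edgeR). H2-DMb2-201 and H2-DMb2-202 held about the same shares in all groups, with means of 73.7% to 76.5% for the former. The shares of H2-Ob transcripts varied too widely within groups for a comparison, from 11.3% to 100% for H2-Ob-201.

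**Figure D4:**
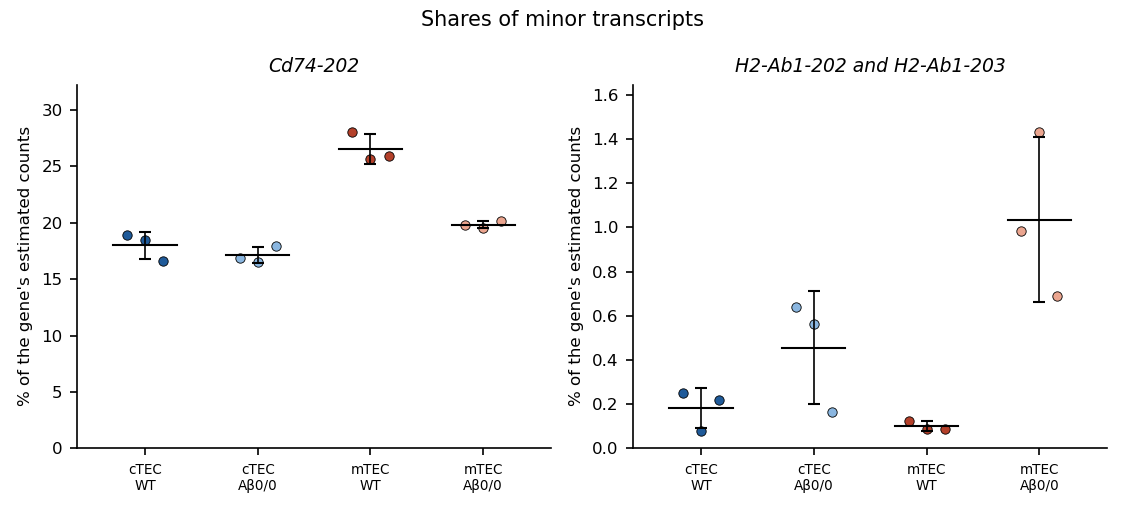
Shares of the estimated counts of a gene assigned to Cd74-202 and to the retained-intron transcripts of H2-Ab1, in percent, with 1 point per library, a line at the mean and whiskers of 1 SD. The 3 WT mTEC libraries had 25.7% to 28.1% of Cd74 counts in Cd74-202, above the other 9 libraries, and the 3 Aβ0/0 mTEC libraries had the highest retained-intron shares of H2-Ab1.

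All of the genes but Cd74 and Ciita lie in 1 stretch of chromosome 17, from H2-Oa at 34092340 to 34095234 to H2-Eb1 at 34305867 to 34316674 (GRCm38), with H2-Ob 18.8 kb before and H2-Aa 30.1 kb after the start of H2-Ab1. Of 16 other genes on either side of H2-Ab1, none passed between genotypes in mTEC or, of the 14 that could be tested, in cTEC (edgeR, against 5.66% and 0.0194% of all genes). None of them had an unadjusted p under 0.05, against 15.3% of all genes in mTEC and 2.16% in cTEC, and their median difference was -0.11 log2 units in mTEC and 0.06 in cTEC. These neighbours included Tap1 and Tap2, which transport peptides for MHC class I, at -0.44 ± 0.19 and -0.23 ± 0.23 in mTEC, and the immunoproteasome subunit genes Psmb8 and Psmb9 at 0.13 ± 0.16 and -0.20 ± 0.26. The largest estimates, of Btnl2 and Btnl1 at 2.07 ± 1.55 and 1.75 ± 1.497 in mTEC, had wide errors. Ciita lies on chromosome 16 at 10480059 to 10528418.

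H2-Eb2, a further β chain gene of the region located 68.0 kb from the start of H2-Ab1 and outside the list above, passed in mTEC. H2-Eb2 was at 88.0, 58.7 and 41.9 TPM in WT mTEC and at 13.8, 14.1 and 15.5 TPM in Aβ0/0 mTEC, and it was 1.97 ± 0.28 log2 units higher in WT (edgeR, adjusted p = 0.0352). In cTEC the gene was at 12.8 to 14.2 TPM in WT and 9.49 to 18.0 TPM in Aβ0/0. The Aβ0/0 mTEC libraries were thus within the range of cTEC. Its difference between WT mTEC and WT cTEC was 2.27 (edgeR, adjusted p = 0.00191).

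**Figure D5:**
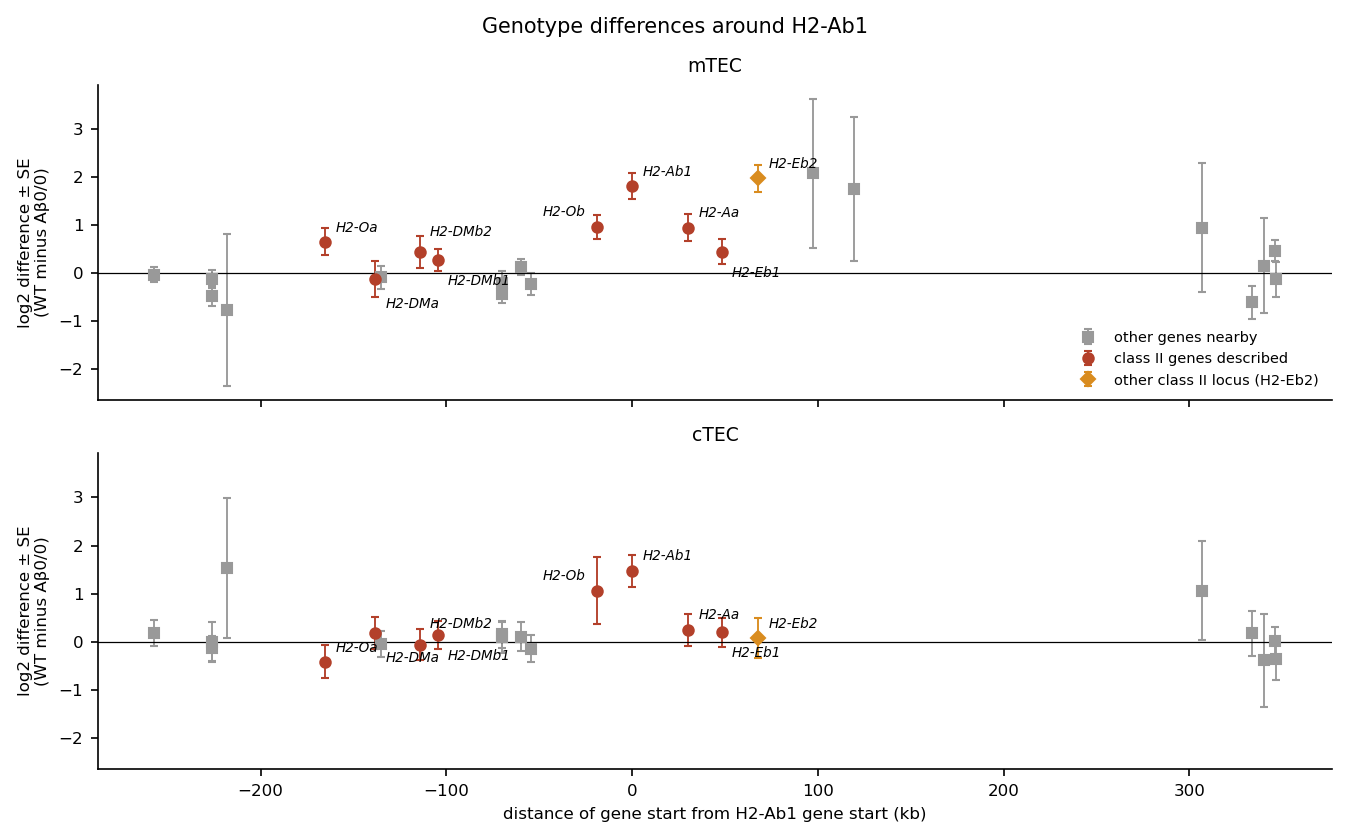
Log2 difference of WT minus Aβ0/0 with its SE from edgeR for genes around H2-Ab1, by the distance of their start from that of H2-Ab1 in kb, in mTEC and cTEC. MHCII genes within 70 kb of H2-Ab1 had positive differences in mTEC, and the class I presentation genes between H2-DMb1 and H2-Ob were near or below 0.

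Genes upstream of MHCII expression were examined as lists. Of 12 transcription factors and coactivators that act on MHCII promoters, none passed between genotypes in mTEC (edgeR, median -0.03), against 5.66% of all genes. An unadjusted p under 0.05 was found for 3, against 15.3% of all genes. These 3 encode histone acetyltransferases, and their edgeR estimates were -0.55 ± 0.16 for Crebbp, -0.58 ± 0.24 for Ep300 and -1.18 ± 0.43 for Kat2b. In TPM the genotypes overlapped for all 3, and Crebbp was at 28.9 to 35.9 TPM in WT mTEC and 28.8 to 32.4 TPM in Aβ0/0 mTEC, with the higher mean in WT. Rfxank, a subunit of RFX, was at 14.6 to 17.6 TPM in WT mTEC and 4.91 to 12.6 TPM in Aβ0/0 mTEC, without overlap (edgeR, 1.04, not passing). Rfx5, another subunit, was at 7.70 to 12.3 TPM in WT mTEC and 6.86 to 13.4 TPM in Aβ0/0 mTEC. Of 7 genes by which interferon gamma reaches Ciita, none passed in mTEC, against the same 5.66% (edgeR, median -0.17, 2 with an unadjusted p under 0.05, against the same 15.3%). No gene of either list passed in cTEC, against 0.0194% of all genes, or was under 0.05 without adjustment, against 2.16%.

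Genes that act on the MHCII pathway after transcription were examined in the same way. Of 10 genes of peptide and invariant chain processing, 9 could be tested and none passed between genotypes in mTEC, against 5.66% of all genes (edgeR, 5 with an unadjusted p under 0.05, against 15.3%). Ctss, the protease that completes the cleavage of the invariant chain in most presenting cells, was at 236, 213 and 195 TPM in WT mTEC and 108, 137 and 106 TPM in Aβ0/0 mTEC (0.73 ± 0.24, edgeR, adjusted p = 0.182). Ctsl, which does so in cTEC, was at 686, 984 and 1126 TPM in WT mTEC and 1212, 1466 and 1695 TPM in Aβ0/0 mTEC (-0.87 ± 0.36, edgeR, adjusted p = 0.313). Neither overlapped between genotypes, in opposite directions.

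Between WT mTEC and WT cTEC, 3 of these 9 genes were higher and 2 were lower in mTEC, where 26.8% of all genes were called in either direction. Ctss, at 8.32 to 16.5 TPM in WT cTEC, was higher in mTEC by 4.17 ± 0.34 log2 units (edgeR, adjusted p = 3.54e-04). Ctsh and Ctsz, further cathepsin genes, were higher by 3.50 and 1.93. Ctsl and Prss16, the thymus-specific serine protease of cTEC, were lower, at -2.04 and -4.93. Of these, Ctss, Ctsh, Ctsl and Prss16 also passed in Aβ0/0 mice, at 3.45, 3.63, -1.79 and -5.12, against 5.6% of all genes. Of 8 genes of MHCII traffic and turnover, none passed between genotypes in mTEC or, of the 7 that could be tested, in cTEC (edgeR, against 5.66% and 0.0194% of all genes). Cd82 was higher and Lamp2 lower in mTEC of both genotypes (2.14 and -1.54 in WT, 1.79 and -1.65 in Aβ0/0), against the same 26.8% and 5.6% of all genes.

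Other cells that express MHCII could contribute reads to a sorted pool, and the genotypes of mTEC also differed in markers of such cells and of mature mTEC. The counts of markers called between genotypes in mTEC stand against 5.66% of all genes. With the replicate number as a block, or without WT replicate 1, 2 or 3, no gene passed there. Of 7 mature mTEC markers, 3 were higher in WT mTEC, namely Aire at 2.17 and Icosl at 1.20 log2 units and Cd86, at 8.53 to 15.8 TPM in WT and at most 0.828 TPM in Aβ0/0, and the sum of the 7 was 815 to 1439 TPM in WT and 386 to 422 TPM in Aβ0/0. Cd86 is also expressed by dendritic cells and B cells. The 9 cTEC markers summed to 1395 to 1837 TPM in WT mTEC and 1670 to 2290 TPM in Aβ0/0 mTEC. In edgeR 1 of them was higher in WT, and 2 had an unadjusted p under 0.05 in the other direction, against 15.3% of all genes. The 6 B cell markers summed to 24.8 to 40.3 TPM in WT mTEC and 7.36 to 29.8 TPM in Aβ0/0 mTEC, and none passed. Most of that sum was Cd79b, at 17.9 to 27.7 TPM in WT and 6.66 to 29.0 TPM in Aβ0/0. Cd79a, Ms4a1, Pax5 and Cd22 were higher in every WT library, with Cd79a at 3.12 to 5.03 TPM in WT and at most 0.576 TPM in Aβ0/0. In edgeR 5 of the 6 had a positive difference (median 1.98 log2 units), and 2 had an unadjusted p under 0.05, against 15.3% of all genes. Of the dendritic cell markers, 6 of 7 could be tested and 2 were higher in WT, Itgax and Cd209a, at only 0.163 to 0.450 and 1.08 to 2.44 TPM there. Flt3, Xcr1 and Siglech, at most at 2.27 TPM, were also higher in every WT library. The 7 dendritic cell markers summed to 12.8 to 19.07 TPM in WT and 7.08 to 15.9 TPM in Aβ0/0, where Itgax, Clec9a and Cd209a were at 0 in all libraries. Most of that sum was Zbtb46, at 6.996 to 13.5 TPM in WT and 5.73 to 15.2 TPM in Aβ0/0, and 5 of the 6 tested markers had a positive difference. Of the 7 macrophage markers 1 was higher in WT, Adgre1, which was at 0 in all Aβ0/0 libraries, and the sums were 638 to 696 TPM and 114 to 753 TPM. Most of these sums was Lyz2, at 585 to 626 TPM in WT and at 740, 104 and 107 TPM in Aβ0/0. C1qa was at 6.36 to 12.1 TPM in WT and 0 to 2.74 TPM in Aβ0/0, and C1qb at 25.9 to 31.1 TPM and 0 to 5.02 TPM, without overlap (edgeR, adjusted p = 0.588 and 0.334). Of 3 genes expressed by all leukocytes, Laptm5 and Coro1a were higher in WT mTEC, and the sums were 350 to 482 TPM and 149 to 171 TPM. The third, Ptprc, encodes the CD45 antigen that the sort gated against, and it overlapped between the genotypes, at 3.70 to 4.79 TPM in WT and 2.35 to 4.46 TPM in Aβ0/0 (edgeR, -0.05 ± 0.63, adjusted p = 0.988). The 8 thymocyte markers summed to 54.7 to 112 TPM and 13.9 to 93.3 TPM, and none passed. All 8 had a positive difference in edgeR (median 0.87 log2 units), and Ptcra and Cd2 did not overlap, at 3.31 to 4.74 and 3.27 to 6.54 TPM in WT and at 1.30 to 2.40 and 0 to 1.73 TPM in Aβ0/0. The part of these cells in the differences of the MHCII genes was not tested.

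The same markers also moved with the other comparisons. Between the subsets of WT mice, the sums in mTEC given above were higher, without overlap, than those in cTEC, which were 2.34 to 7.80 TPM for B cell, 1.35 to 2.54 TPM for dendritic cell, 55.3 to 358 TPM for macrophage and 69.4 to 186 TPM for leukocyte markers. In edgeR, 2 of 6 B cell markers, 4 of 6 dendritic cell markers and 4 of 7 macrophage markers passed as higher in WT mTEC, against 26.8% of all genes, while of the 3 leukocyte genes 1 was higher and 2 were lower. Between the subsets of Aβ0/0 mice, B cell, dendritic cell and macrophage sums were also higher in mTEC without overlap. In cTEC they were 0.950 to 4.61, 1.10 to 6.47 and 10.04 to 43.8 TPM. Thymocyte sums were lower in mTEC and leukocyte sums overlapped. No B cell, dendritic cell or macrophage marker passed there, against 5.6% of all genes. In that fit 1 leukocyte gene was higher, and 2 leukocyte genes and 1 thymocyte marker were lower. Between the genotypes of cTEC, the thymocyte sum was 176 to 371 TPM in WT and 447 to 548 TPM in Aβ0/0, and the macrophage sum was 55.3 to 358 TPM in WT and 10.04 to 43.8 TPM in Aβ0/0, both without overlap. Most of the macrophage sum was Lyz2, which overlapped, at 353, 86.4 and 31.5 TPM in WT and 7.19, 38.3 and 32.5 TPM in Aβ0/0. In WT replicate 3, which had the lowest WT sum, Cd68 was at 19.3 TPM, against 2.19 and 2.10 TPM in the other WT libraries. All 8 thymocyte markers, all 9 cTEC markers and all 3 leukocyte genes had higher estimates in Aβ0/0 cTEC (edgeR, medians -0.72, -0.49 and -0.38 log2 units). None of these passed, and 3 thymocyte markers and 1 leukocyte gene had an unadjusted p under 0.05, against 2.16% of all genes. The part of these cells in the subset differences and in the cTEC values of the MHCII genes was not tested.

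The genes whose levels followed the MHCII genes most closely over the 12 libraries were taken from 11068 genes by Pearson r of log2 CPM, as a description, since the libraries share groups, pools and depth. H2-Aa was most like Nsmce3 (0.92), Ssr2 (0.91), Cxcl13 (0.90), Retreg1 (0.89) and Camp (0.88). H2-Ab1 was most like Fbxo36 (0.92), Tmem254b (0.91), Tmem254c (0.90), Atp6v0c (0.89) and Plvap (0.88). Ciita was most like Sephs1 (0.90), Mapkap1 (0.85), Nipsnap2 (0.85), Cdc27 (0.85) and Rel (0.84). Among the 10 genes themselves, the closest pairs were H2-DMb2 with Cd74 at 0.98 and H2-DMa with H2-DMb1 at 0.94, and H2-Aa had an r of 0.91 with H2-Eb1 and of 0.84 with H2-Ab1. H2-DMa was at -0.64 with H2-Ob and at -0.62 with H2-Oa.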

How the data were processed

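Per the labels and the study's methods, RNA of sorted pools was amplified with a low-input SMART-Seq kit and sequenced as paired 50-base reads. The authors trimmed reads and quantified transcripts with kallisto 0.43, which gave the deposited estimated counts and TPM per transcript. The authors also deposited a table of log2 values (DESeq2 rlog) per gene. Of 109282 transcripts, 107987 matched the mouse annotation here (GRCm38) and were summed to 34547 genes. The 1295 unmatched held 0.45% to 0.512% of counts.

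Rounded estimated counts were tested with edgeR 4.0.16 (TMM scaling, edgeR's filterByExpr, quasi-likelihood test, Benjamini-Hochberg adjustment over all genes tested, threshold 0.05). DESeq2 1.42.0 and limma 3.58.1 on rlog values served as alternatives, beside other scalings, filters, blocks and libraries left out. Ratios and shares were compared by exact permutation. Scripts were tested on simulated data. The genes, lists and tests were chosen with earlier results of these data known. Named genes were the 10 genes and, of each list, those that passed in a comparison and up to 3 with the largest differences among those with a mean of at least 5 CPM, plus Rfx5, Tap1, Tap2, Psmb8 and Psmb9, chosen for their roles after their values were seen. An item that the rule would name is not reported here. cTEC and mTEC of 1 pool were paired by the study's sort records. Their deviations from group means correlated at 0.42, -0.04 and 0.23 in WT and at 0.37, 0.20 and 0.05 in Aβ0/0.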

Additional observations from a re-analysis of the deposited data

Results flagged for a closer look

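Between mTEC and cTEC of the same pool, H2-Aa, H2-Ab1 and Cd74 were higher in mTEC in all 3 WT pools and lower in mTEC in all 3 Aβ0/0 pools in log2 TPM, which was also the case for 1.07% of the genes tested. The mean difference was 0.64 in WT and -0.33 in Aβ0/0 for H2-Aa, a gap of 0.97. For H2-Ab1 it was 0.34 and -0.22, a gap of 0.55, and for Cd74 0.56 and -0.29, a gap of 0.85. These opposite directions were not tested as such, and none of these genes passed the interaction test in edgeR. They depended on the scale. In TMM-scaled CPM, 1 of the 3 Aβ0/0 pools was higher in mTEC for H2-Aa, and 2 of the 3 were for H2-Ab1 and for Cd74. The median ratio of mTEC to cTEC over all genes in Aβ0/0 mice was -0.10 in log2 TPM and 0.08 in log2 TMM-scaled CPM.

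The H2-Ab1 to H2-Aa ratio, which no scaling touches, was lower in mTEC than in cTEC in WT (-0.30 in log2) and higher in mTEC in Aβ0/0 (0.11). The gap of -0.41 had the smallest p that 3 pools against 3 allow (exact permutation test, two-sided, p = 0.1).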

How the results depend on the processing

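With 3 pools in each group, a difference of a size close to its SE could not be detected, and the estimated counts are PCR-amplified reads without molecular identifiers. In mTEC, H2-Ab1 was the gene of the 10 that passed between genotypes in edgeR. None passed without a filter on low counts (H2-Ab1 adjusted p = 0.0554), with a minimum mean of 10 counts (0.0584) or with all 12 libraries in the edgeR fit (0.0601), and with a library left out 0 to 1 passed. With DESeq2, 3 passed on the same libraries, against 8.94% of all genes, and 2 on all 12, with H2-Ab1 among them. The number of all genes called in mTEC was 1054, and it was 27 without a filter, 11 with the minimum mean, 20 on all 12 libraries, 0 with the block or without WT replicate 1, 2 or 3, and 2377, 83 and 13 without Aβ0/0 replicate 1, 2 or 3, respectively. In cTEC, DESeq2 called 1 gene, H2-Ab1, on the same libraries and on all 12. Between subsets of WT, DESeq2 called 5 and 3 to 7 passed with a library left out, the 7 against 38.1% of all genes. Counts in this section without a share of all genes are not set against the whole table. Between subsets of Aβ0/0, DESeq2 called 3, edgeR on all 12 libraries 2, and 0 to 1 passed with a library left out, the 1 being H2-DMa without mTEC replicate 2. The ratio of H2-Ab1 to H2-Aa, the share of H2-Ab1-201 and the share of Cd74-202 kept the sign of their genotype differences under each alternative tried.

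The study's sort records list WT and Aβ0/0 by replicate number, and the labels do not say that a number marks a shared day. Same-numbered libraries of the genotypes had deviations from their group means that correlated at 0.47, 0.25 and 0.091 in mTEC and at 0.38, -0.17 and -0.0049 in cTEC. The replicate number as a block left 0 of the 10 genes past the threshold in mTEC (H2-Ab1 adjusted p = 0.102). In Aβ0/0 the block of the pool gave 3 calls between the subsets, and it left the calls between the WT subsets and in the interaction as they were.

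Some differences that had not passed changed sign. In mTEC the genotype difference of H2-DMa was 0.11 from the rlog values. In the interaction H2-Ob was at 0.027 with RLE size factors, 0.50 with counts scaled from TPM, 0.34 from the rlog values and 0.027 with DESeq2. Ciita was at 0.044 with RLE size factors, 0.046 from the rlog values and 0.044 with DESeq2, and H2-DMa at 0.051 from the rlog values. Between the subsets of Aβ0/0, H2-Ab1 was at -0.0016 with RLE size factors, -0.050 without a filter, -0.037 with a minimum mean of 10 counts, -0.013 with counts scaled from TPM, -0.032 from the rlog values, -0.017 with the block and -0.018 with DESeq2, and H2-DMb2 at -0.015 from the rlog values and -0.0035 with the block. With a library left out, the genotype difference in mTEC ranged from -0.40 to 0.38 for H2-DMa and from -0.0014 to 0.27 for Ciita. In cTEC it ranged from -0.046 to 0.43 for H2-Aa, -0.029 to 0.33 for H2-Eb1, -0.19 to 0.32 for H2-DMa, -0.062 to 0.23 for H2-DMb1, -0.33 to 0.16 for H2-DMb2, -0.34 to 0.016 for Cd74, -0.38 to 0.66 for H2-Ab1-202 and -0.47 to 0.75 for H2-Ab1-203. The interaction ranged from -0.48 to 0.25 for H2-DMa, -0.79 to 0.29 for H2-Ob and -0.14 to 0.11 for Ciita. Between the subsets of Aβ0/0 the ranges were -0.37 to 0.11 for H2-Aa, -0.26 to 0.22 for H2-Ab1, -0.25 to 0.33 for H2-DMb2 and -0.27 to 0.20 for Cd74. The cause of these changes was not tested.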
